A study of Mus musculus with 6 samples.

Results

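In mammary epithelial cells (MECs), 9 genes of IL-6 family signalling were followed, chosen by name out of 55487 genes in the count table. They are the cytokine gene Lif, the receptor genes Il6st, Il6ra, Lifr and Osmr, the IL-4 receptor gene Il4ra, the transcription factor gene Stat3, and Bcl3 and Pim1, which STAT3 can induce. All 9 are single rows of the table, and all 9 were among the 17165 genes with enough counts to be tested. MECs came from female BALB/c mice at 10 weeks of age. There were 3 wild-type mice and 3 IL-21isoTg mice, whose transgene makes T cells express an isoform of IL-21 that is bound to the membrane. None of them had been bred, and oestrous stage was randomized. Digested glands were depleted of cells with CD45 (leukocytes), CD31 (endothelium) or CD140a (fibroblasts), and 1 poly(A)-selected library was sequenced per mouse. What was left after this depletion was called MECs, so no epithelial marker was used to select them. The promoter that drives the transgene is not given in the sources used here.

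IL-6 family cytokines share the receptor subunit gp130, which Il6st encodes. IL-6 first binds its own receptor IL-6Rα (Il6ra), whereas LIF joins the LIF receptor (Lifr) to gp130 and oncostatin M joins the oncostatin M receptor (Osmr) to gp130. The bound receptors activate JAK kinases, which phosphorylate STAT3, and STAT3 then enters the nucleus and drives genes such as Socs3, whose product shuts the pathway off. In the mammary gland, LIF made by the epithelium activates STAT3 at weaning, when secretory cells die and the gland involutes. IL-21, the cytokine of the transgene, also signals mainly through STAT3, but by a receptor of its own.

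The libraries held between 15902886 and 25719244 counts on genes, and the totals of the genotypes overlapped. Counts of 15 salivary gland genes made up 4.92% to 41.0% of each library, with the highest share in IL-21isoTg mouse 3. The gene of the transgene, Il21, had 0, 0 and 37 counts in wild-type libraries, against 795, 216 and 131 in IL-21isoTg libraries (log2 fold change 4.98, edgeR adjusted p = 0.757). Wild-type mouse 3 thus had Il21 counts where the other wild-type mice had 0. It also had 611 counts of the milk protein gene Wap, against 1 and 1 in the others. For Csn2, another such gene, it had 11565 counts against 321 and 209. For the milk protein genes Csn3 and Glycam1 it lay between the others. The source of its Il21 and milk protein counts was not tested. The values of Il6ra, Il4ra and the main STAT3-linked genes are also given without this mouse. The epithelial genes Epcam and Krt8 were abundant in every library, at 674 to 1144 and 1630 to 3009 CPM, and the leukocyte gene Ptprc was low, at 2.16 to 9.40 CPM. CPM are counts relative to library size after TMM normalization, which corrects for a few genes that take a large share of the reads. The fibroblast gene Pdgfra, which encodes the CD140a used for depletion, still had 15.8 to 60.4 CPM.

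To show the stretches of the genome from which the results below start, the bases just before the annotated start are given for Stat3 and for Il6ra and Il4ra, the members whose genotypes did not overlap. The sequences are those of RefSeq for GRCm38.p6, read 5′ to 3′ on the strand of the gene, and they lie at chr11:100939541-100939640 (minus strand), chr3:89913197-89913296 (minus strand) and chr7:125552021-125552119 (plus strand). Capitals mark the GC box GGGCGG.
Stat3: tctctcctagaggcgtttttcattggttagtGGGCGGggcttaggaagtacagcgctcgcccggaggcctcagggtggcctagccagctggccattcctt
Il6ra: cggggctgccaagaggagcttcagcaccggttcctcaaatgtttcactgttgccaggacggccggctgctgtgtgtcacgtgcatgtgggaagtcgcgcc
Il4ra: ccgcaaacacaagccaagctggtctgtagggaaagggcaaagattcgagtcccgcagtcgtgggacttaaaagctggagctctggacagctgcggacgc
Promoter windows, from 250 bases before to 50 after the RefSeq start, were searched for 3 motifs, on both strands. The members had 11 such windows. The letters TTCNNNGAA, to which STAT3 and other STAT factors bind, were in 0 of the 11 and in 8.30% of all 32851 windows, and 11 windows are too few to tell 0 from a share of this size. They were in 7 of the 81 windows of pathway genes (8.64%), that of Socs3 among them, a share near that of all windows. The same letters with 1 more base in the spacer, which STAT6 prefers, were also in 0 of the 11, against 6.17% of the pathway windows and 6.95% of all windows. GGGCGG, which does not overlap either, was in 7 of the 11 windows, in 60.5% of the 81 windows of pathway genes and in 35.7% of all. The member windows were also rich in GC, with 9 of the 11 at 60.7% to 81.3%, against a median of 52.7% for all windows. For comparison, the window of Socs3, the classical STAT3 feedback gene, held TTCNNNGAA at chr11:117969502-117969530 (minus strand), shown with 10 bases on each side and the motif in capitals.
Socs3: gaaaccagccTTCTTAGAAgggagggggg

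Levels of different genes were compared as CPM per kb of exon in the GENCODE M21 annotation. Lif was the most abundant member, at 103.6 ± 36.9 CPM per kb (SD over 6 libraries), and was above the next gene in 6 of 6 libraries. Pim1, which encodes a serine/threonine kinase induced by cytokines, followed at 42.1 ± 12.3, Stat3 at 40.8 ± 3.92 and Bcl3, which encodes a nuclear partner of NF-κB, at 32.7 ± 8.71 CPM per kb. Pim1 was above Stat3 in 4 of 6 libraries and Stat3 above Bcl3 in 5 of 6, so these neighbours were not separated in every mouse. Of the receptors, Il6st was highest at 21.1 ± 1.58 CPM per kb, below Bcl3 and above Il4ra in 6 of 6 libraries each. Il4ra at 12.0 ± 3.47, Osmr at 10.1 ± 0.674 and Lifr at 8.45 ± 2.36 CPM per kb changed places between mice, with Il4ra above Osmr in 3 of 6 libraries and Osmr above Lifr in 4 of 6. Il6ra was the lowest member, at 3.97 ± 0.940 CPM per kb, and lay below Lifr in 6 of 6 libraries. The shared subunit gene Il6st was thus more abundant per length than Il6ra, Lifr and Osmr.

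**Figure D1:**
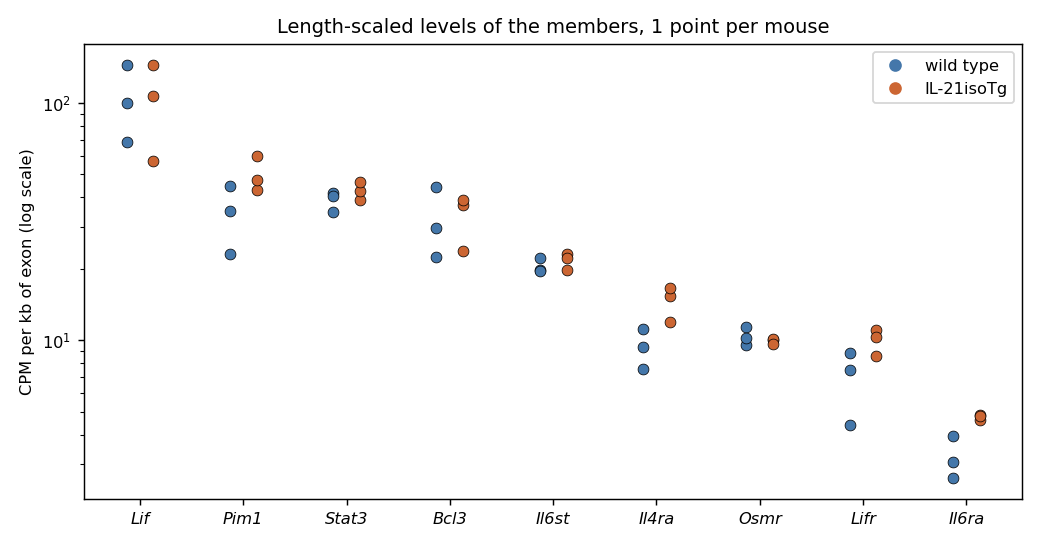
Level of each member in CPM per kb of exon (log axis), with 1 point per mouse, wild type in blue and IL-21isoTg in orange, and genes ordered by their mean. Lif lies highest and Il6ra lowest, while the points of Il4ra, Osmr and Lifr overlap.

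The members also fell apart by how much they varied between mice. The coefficient of variation over the 6 libraries was 6.65% for Osmr, 7.50% for Il6st and 9.61% for Stat3, all under 12.0%, the lower quartile of the 7042 tested genes with a mean of at least 20 CPM. It was 26.7% for Bcl3, 27.9% for Lifr, 28.9% for Il4ra, 29.3% for Pim1 and 35.6% for Lif, all above the upper quartile of 25.3%. Il6ra lay between them at 23.7%. These values include differences between the genotypes as well as between mice of a genotype. For Il6ra and Il4ra, whose genotypes did not overlap, part of the variation lay between the genotypes.

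To ask whether these genes differed between IL-21isoTg and wild-type MECs, edgeR's quasi-likelihood test was fitted to all 17165 genes, with Benjamini-Hochberg adjustment. None of the 9 members had an adjusted p under 0.05 (0 of 9, against 0% of all genes tested in either direction), and their adjusted p-values were 0.809 to 0.993. DESeq2, which called 0.42% of all genes higher and 0.0467% lower, also called 0 of 9, as did edgeR's likelihood ratio test and limma-voom. At an unadjusted p under 0.05 there were 2 members, Il6ra and Il4ra, both higher in IL-21isoTg MECs. Of all genes, 5.82% were under that threshold, 3.19% higher and 2.63% lower. Without wild-type mouse 3 there was 1 such member, Il4ra, and of all 17848 genes then tested 362 were higher and 333 lower. Without wild-type mouse 1 there were 3 such members, and of all 17667 genes then tested 657 were higher and 567 lower. In Il6ra and Il4ra, and in no other member, the values of the genotypes were separate. IL-21isoTg was above wild type without overlap in 5.54% of all genes and below it in 6.54%. The median log2 fold change of the members was 0.13, and that of all genes tested was -0.02. The members were chosen with earlier results of these data known, so this is a description only. The p-values measure the spread between mice, and in whole-preparation RNA fewer cells of a type and less RNA per cell cannot be told apart.

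**Figure D2:**
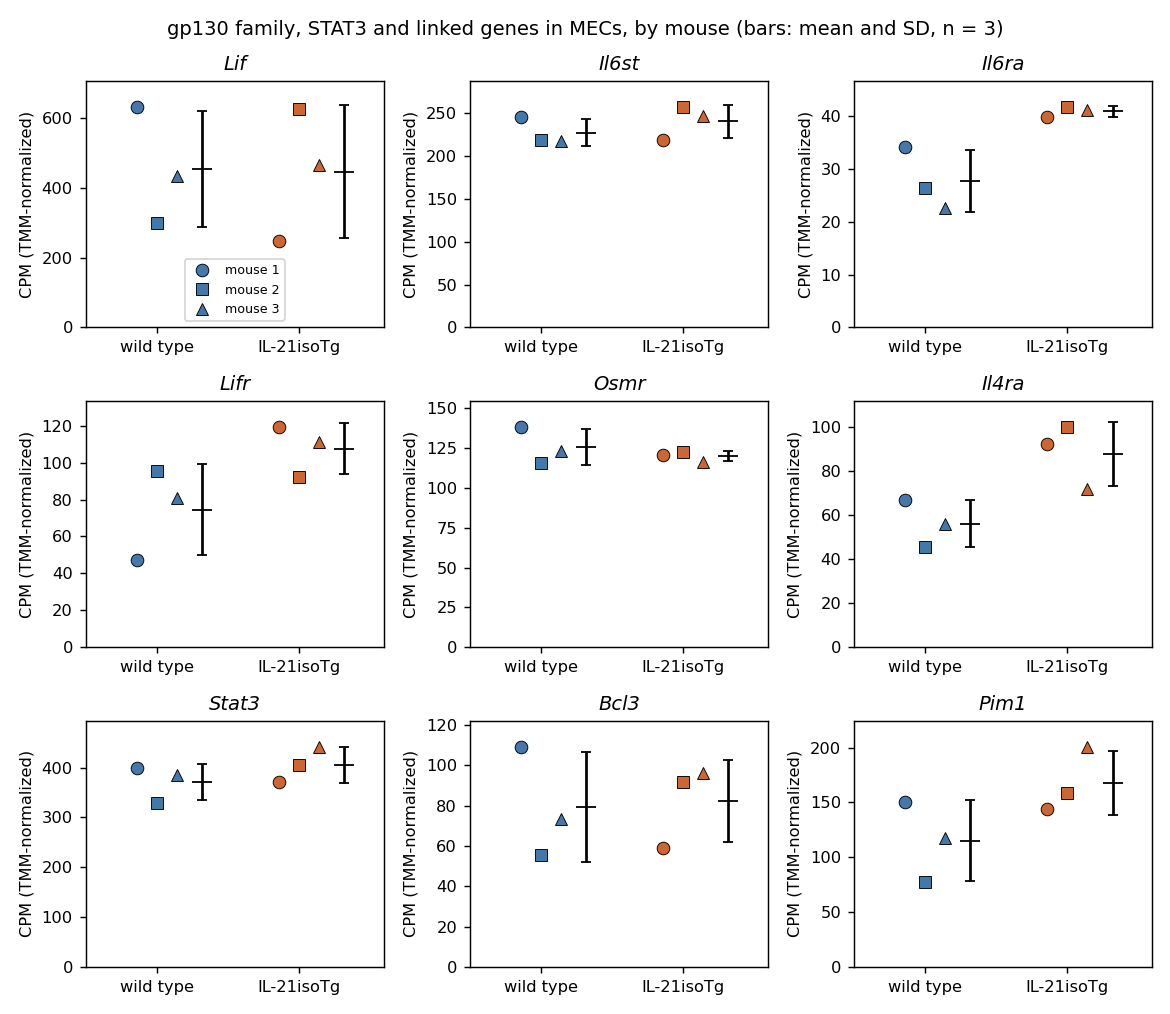
CPM of each member in each mouse (symbols mark mice 1 to 3 of each genotype, which are not paired), with the mean and SD of 3 mice as bars and the axis starting at 0. Il6ra and Il4ra are the panels in which the 2 genotypes do not overlap, while Il6st, Osmr and Stat3 are nearly level.

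Lif (ENSMUSG00000034394) spans 4257557 to 4272514 of chromosome 11 in the build GRCm38 (plus strand). Its level was 631 CPM, 299.0 CPM and 436 CPM in wild-type mice and 247 CPM, 627 CPM and 465 CPM in IL-21isoTg mice. Each genotype thus had 1 mouse with a high level and 1 with a low level, and the ranges overlapped almost wholly. The log2 fold change was -0.03 (95% interval -0.91 to 0.86, edgeR adjusted p = 0.993), the widest interval among the members.

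Among the 11 listed ligand genes of the family, 6 were tested and 0 had an unadjusted p under 0.05. Il6, the ligand that gives the family its name, had 48.8, 36.0 and 55.3 CPM in wild-type MECs and 50.8, 43.5 and 68.0 CPM in IL-21isoTg MECs. These values overlapped (log2 fold change 0.21, edgeR adjusted p = 0.879). Il11 and Ctf1 had log2 fold changes of -0.44 and -0.43 and edgeR adjusted p-values of 0.903 and 0.820, respectively. Osm, which encodes the ligand of Osmr, had 0 to 9 counts per library and was not tested, so a difference in it was not detectable at this depth.

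Il6st (ENSMUSG00000021756) spans 112464070 to 112510086 of chromosome 13 (plus strand). Its level was 246 CPM, 219 CPM and 217 CPM in wild-type mice and 219 CPM, 257 CPM and 246 CPM in IL-21isoTg mice. The genotypes overlapped, and the whole range was narrow. The log2 fold change was 0.08 with a 95% interval of -0.28 to 0.44 (edgeR adjusted p = 0.935).

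Osmr (ENSMUSG00000022146), which spans 6813577 to 6874969 of chromosome 15 (minus strand), was level in the same way. It had 138, 116 and 123 CPM in wild-type mice and 121, 122 and 116 CPM in IL-21isoTg mice, with a log2 fold change of -0.07 (95% interval -0.40 to 0.27, edgeR adjusted p = 0.943). The intervals of Il6st and Osmr were among the narrowest of the members.

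Lifr (ENSMUSG00000054263) spans 7090614 to 7197489 of the same chromosome (plus strand). It had 47.4, 95.6 and 80.8 CPM in wild-type mice and 119.2, 92.1 and 111.1 CPM in IL-21isoTg mice. Wild-type mouse 1 stood well below the others, and wild-type mouse 2 lay above IL-21isoTg mouse 2, so the groups overlapped. The log2 fold change was 0.53 (95% interval -0.07 to 1.13, edgeR adjusted p = 0.809), and it was 0.30 without wild-type mouse 1.

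Il6ra (ENSMUSG00000027947) spans 89864059 to 89913196 of chromosome 3 (minus strand), downstream of the sequence shown above. Its level was 34.2, 26.4 and 22.6 CPM in wild-type mice and 39.8, 41.7 and 41.2 CPM in IL-21isoTg mice. The IL-21isoTg mice were close to each other and all lay above the highest wild-type mouse. The means were 27.8 ± 5.91 and 40.9 ± 0.978 CPM (SD, n = 3). The fold change was 1.47 (log2 0.56, 95% interval 0.13 to 0.99), with an unadjusted p of 0.0170 and an adjusted p of 0.809 from edgeR. Without wild-type mouse 3, the mouse with Il21 counts, the log2 fold change was 0.43 (edgeR unadjusted p = 0.0731), and without IL-21isoTg mouse 3, the library richest in salivary gland counts, it was 0.56 (edgeR unadjusted p = 0.0339).

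Of the 8 listed receptors of the gp130 family, 8 were tested, 0 passed the adjusted threshold and 1, Il6ra, had an unadjusted p under 0.05 (5.82% of all genes). Their median log2 fold change was 0.47, against -0.02 for all genes. This list too was drawn up with earlier results of these data known, so the median is a description only. The highest log2 fold changes were those of Il31ra (2.19) and Il27ra (1.13), genes with few counts, at 0 to 92 and 5 to 95 per library (edgeR adjusted p = 0.809 and 0.820). Il6st and Osmr were level, and Cntfr had a log2 fold change of -0.23 (edgeR adjusted p = 0.942). Il11ra1, the receptor of IL-11, had a log2 fold change of 0.41 (edgeR adjusted p = 0.809).

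Because Il6ra, Lifr and Osmr all need gp130, they were also set against Il6st within each library, as a ratio per kb of exon that does not depend on library scaling. The Il6ra to Il6st ratio was 0.179, 0.155 and 0.134 in wild-type mice and 0.233, 0.208 and 0.215 in IL-21isoTg mice, and the groups did not overlap. The Osmr to Il6st ratio was 0.515, 0.484 and 0.521 against 0.505, 0.436 and 0.433, and the groups overlapped. The Lifr to Osmr ratio was 0.385, 0.929 and 0.736 in wild-type mice and 1.11, 0.846 and 1.07 in IL-21isoTg mice. Wild-type mouse 2 exceeded IL-21isoTg mouse 2, so these groups overlapped as well. Of 7 such ratios compared by exact two-sided permutation tests, those of Il6ra to Il6st, Il4ra to Il6st and Pim1 to Stat3 reached an exact p of 0.1, below which this design cannot go (adjusted p = 0.233 over the 7).

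Il4ra (ENSMUSG00000030748) encodes the receptor chain shared by IL-4 and IL-13, which signal through STAT6 rather than gp130. Its gene spans 125552120 to 125579474 of chromosome 7 (plus strand). Its level was 66.8, 45.5 and 56.0 CPM in wild-type mice and 92.1, 99.9 and 71.7 CPM in IL-21isoTg mice. The genotypes were separate, with a small gap between IL-21isoTg mouse 3 and wild-type mouse 1. The means were 56.1 ± 10.7 and 87.9 ± 14.5 CPM (SD, n = 3). The fold change was 1.57 (log2 0.65, 95% interval 0.19 to 1.11), with an unadjusted p of 0.0119 and an adjusted p of 0.809 from edgeR. It was 0.65 on the log2 scale without wild-type mouse 3 (edgeR unadjusted p = 0.0379) and 0.78 without IL-21isoTg mouse 3 (edgeR unadjusted p = 0.00552).

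The partners of Il4ra were mixed in direction. Of 7 listed genes of the IL-4 and IL-13 receptors, 4 were tested and 0 passed the adjusted threshold. Il2rg, which encodes the common γ chain, had 2.48, 1.49 and 1.66 CPM in wild-type mice and 7.40, 3.72 and 2.89 CPM in IL-21isoTg mice, without overlap (log2 fold change 1.32, edgeR adjusted p = 0.809). Il13ra1 had a log2 fold change of -0.45 and Stat6 one of -0.07, with edgeR adjusted p-values of 0.809 and 0.943. Il4 and Il13 had at most 12 and 2 counts in a library.

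Markers of epithelial and other cells were read beside Il6ra and Il4ra. Of 12 leukocyte markers 9 were tested, and the summed level of the list was 18.3 to 36.0 CPM in wild-type mice and 24.4 to 36.7 CPM in IL-21isoTg mice, which overlapped. Of the 9, 5 had a positive log2 fold change, with a median of 0.04. The values ran from -1.13 for the B-cell marker Ms4a1 to 0.98 for the T-cell marker Cd3e (edgeR adjusted p = 0.868 and 0.809). Both overlapped between the genotypes. The sums of 7 endothelial markers, 89.4 to 225.6 against 139.7 to 317.8 CPM, overlapped too, but all 7 had a positive log2 fold change, with a median of 0.80. Of these, 3 had an unadjusted p under 0.05, Cdh5 (log2 fold change 1.22), Pecam1 (1.11) and Cldn5 (1.67), and Cdh5 was separate between the genotypes (edgeR adjusted p = 0.809 each). Of 6 adipocyte markers 4 were tested, and all 4 had a positive log2 fold change, with a median of 2.98 and sums of 25.5 to 68.0 against 32.1 to 324.6 CPM. The sum of 8 fibroblast markers, all tested, was 1985 to 3580 CPM in wild-type mice and 4463 to 5131 CPM in IL-21isoTg mice, and it moved with the genotypes without overlap. Col1a1, Col1a2 and Col3a1, which encode fibrillar collagens, made up most of this sum, and 4 of the 8 markers were separate, these 3 and Lum. Dcn, another abundant marker, had a log2 fold change of -0.27 (edgeR adjusted p = 0.872), and Pdgfra, Dpt and Pi16 overlapped. The sum of 8 milk protein genes, made by secretory epithelium, was 523 to 1733 CPM against 8818 to 20366 CPM and also moved with the genotypes. The highest wild-type sum, 1733 CPM, was that of mouse 3. Of 8 basal epithelial markers, all tested, 7 had a positive log2 fold change, with a median of 0.55. Of these, 2 had an unadjusted p under 0.05 in edgeR, Oxtr (1.21) and Cnn1 (0.96), while Krt14 had 0.41 and Krt5 0.18. The 14 luminal markers, with 6 positive, had a median of -0.11. The basal and the luminal sums both overlapped between genotypes. No marker of these lists was at 0 in every library, and the part of these cells in the levels of Il6ra and Il4ra was not tested. With salivary gland counts entered in the fit as a further term, the log2 fold changes were 0.55 for Il6ra and 0.66 for Il4ra.

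Stat3 (ENSMUSG00000004040) spans 100885098 to 100939540 of chromosome 11 (minus strand). Its level was 399 CPM, 329.5 CPM and 385 CPM in wild-type mice and 370.2 CPM, 404 CPM and 441 CPM in IL-21isoTg mice. The groups overlapped, with the lowest value in wild-type mouse 2 and the highest in IL-21isoTg mouse 3. The log2 fold change was 0.13 (95% interval -0.28 to 0.53, edgeR adjusted p = 0.911). Across 11 JAK kinase and STAT genes, all tested, 0 had an unadjusted p under 0.05 and the median log2 fold change was 0.13. Tyk2 and Jak1, which encode kinases bound to these receptors, had log2 fold changes of 0.41 and 0.22, with edgeR adjusted p-values of 0.809 and 0.842. Stat4 had 4 to 15 counts per library and a log2 fold change of -0.59 (edgeR adjusted p = 0.881).

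**Figure D3:**
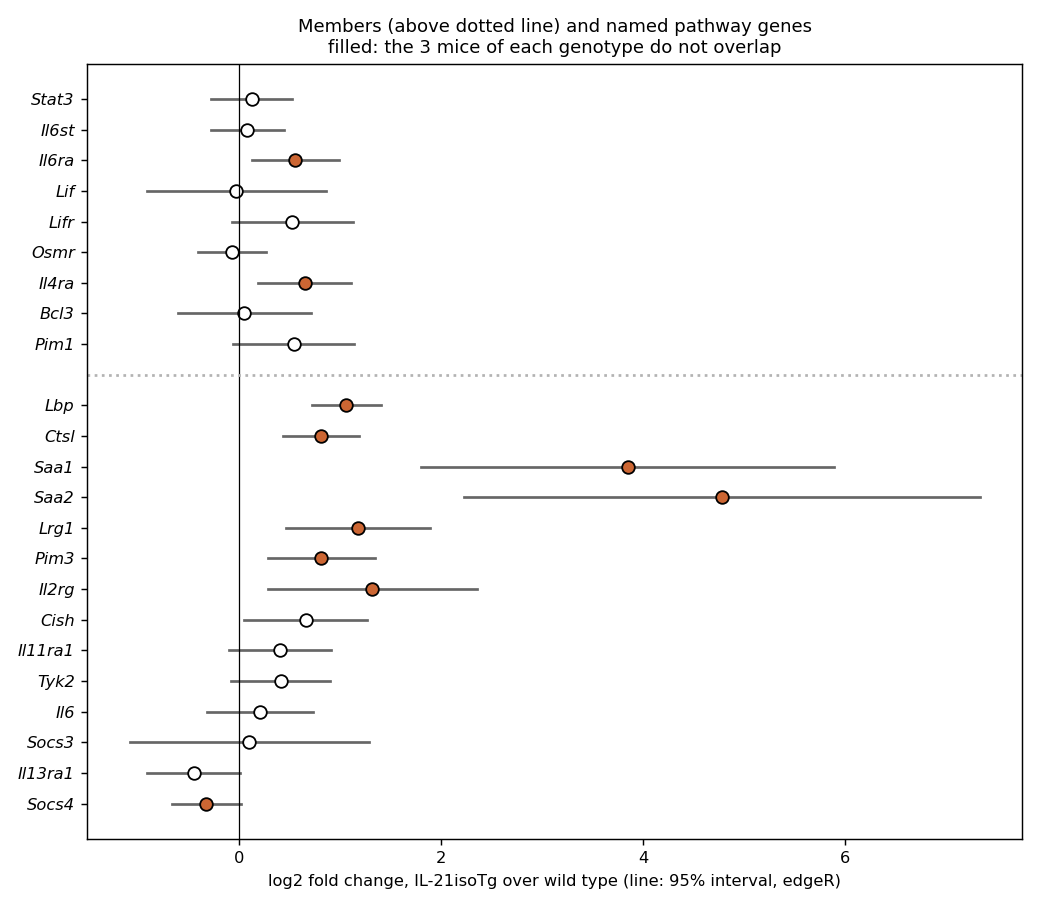
Log2 fold change of IL-21isoTg over wild-type MECs with its 95% interval from edgeR, for the 9 members (above the dotted line) and for other genes of the pathway. Filled points are genes in which the 3 mice of each genotype do not overlap; Il6ra and Il4ra are the filled members, and no gene shown had an adjusted p under 0.05.

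Bcl3 (ENSMUSG00000053175), which spans 19808462 to 19822770 of chromosome 7 (minus strand), had 109.1, 55.5 and 73.4 CPM in wild-type mice and 59.1, 91.7 and 96.2 CPM in IL-21isoTg mice. The highest mouse was wild type and the groups overlapped, with a log2 fold change of 0.05 (95% interval -0.61 to 0.71, edgeR adjusted p = 0.977). Of 10 genes of BCL3 and NF-κB, all tested, 0 had an unadjusted p under 0.05 and the median log2 fold change was -0.11. Nfkbie, Rel and Nfkbib had the smallest p-values, with log2 fold changes of -0.37, 0.30 and 0.18 and edgeR adjusted p-values of 0.845, 0.845 and 0.856.

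Pim1 (ENSMUSG00000024014), which spans 29490753 to 29496112 of chromosome 17 (plus strand), had 150.8, 77.3 and 117.8 CPM in wild-type mice and 143.8, 158.6 and 200.6 CPM in IL-21isoTg mice. Wild-type mouse 1 lay above IL-21isoTg mouse 1, so the groups overlapped. The log2 fold change was 0.54 (95% interval -0.06 to 1.14, edgeR adjusted p = 0.809), and it was 0.32 without wild-type mouse 2. Of the other PIM kinase genes, Pim3 had 84.4, 130.3 and 132 CPM in wild-type mice and 221 CPM, 162 CPM and 227 CPM in IL-21isoTg mice, without overlap (log2 fold change 0.81, edgeR adjusted p = 0.809). Pim2 was low, at 2.37 to 5.86 CPM (log2 fold change -0.15, edgeR adjusted p = 0.956).

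Antisense genes overlap the exons of 4 members, and Stat5a overlaps Stat3 by 72 bp. The setting of the counting for strand is not given in the sources used here, so reads of these pairs could not be told apart. Counts of Gm26885, which shares 488 bp with Pim1, were 20.1% to 23.6% of those of Pim1 in every library, and counts of Gm16175, which shares 161 bp with Bcl3, were 10.7% to 16.1% of those of Bcl3. Gm44876 shares 571 bp with Il4ra and had 6.26% to 13.8% of its counts. It was itself higher on average in IL-21isoTg MECs, with a log2 fold change of 1.02 against 0.65 for Il4ra (edgeR unadjusted p = 0.00636, adjusted p = 0.809), and its part in the Il4ra counts was not tested. Gm42809 shares 242 bp with Il6ra and had 3.17% to 10.3%.

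The genes that STAT3 can drive were examined next, as a list of 24 genes of involution and of the acute phase that includes Bcl3 and Pim1 and was drawn up with earlier results of these data known. All 24 were tested, 0 had an adjusted p under 0.05, and 5 had an unadjusted p under 0.05, all higher in IL-21isoTg MECs (3.19% of all genes). In 8 of the 24 the genotypes did not overlap, with IL-21isoTg above wild type in each (5.54% of all genes). These were Lbp, Ctsl, Saa1, Saa2, Lrg1, Ctsb, Myc and Mcl1, the last a gene of cell survival. In all, 20 of the 24 had a positive log2 fold change. Hp (-0.80), Bcl6 (-0.52), Timp1 (-0.31) and Fos (-0.26) had a negative one, and Saa3 overlapped between the genotypes (2.06). Without wild-type mouse 3, 6 of the 24 were higher at an unadjusted p under 0.05 (2.03% of all genes then tested). Without IL-21isoTg mouse 3, 7 were higher (3.51% of all genes then tested) and 1, Bcl6, was lower (log2 fold change -0.86, edgeR unadjusted p = 0.00196). The median log2 fold change was 0.32, against -0.02 for all genes. Because earlier results were known when the list was drawn up, these shares and medians are a description and cannot test for an excess.

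Lbp, which encodes the lipopolysaccharide-binding protein of the acute phase, had 128.5, 117.4 and 116.8 CPM in wild-type mice and 238 CPM, 267 CPM and 253 CPM in IL-21isoTg mice. The values were tight within each genotype, and the genotypes were far apart for their spread. The fibroblast and milk protein sums given above moved in the same way, and their part was not tested. The fold change was 2.09 (log2 1.06, 95% interval 0.72 to 1.41, edgeR adjusted p = 0.214). DESeq2 gave an adjusted p of 3.27e-08 for it, and edgeR's likelihood ratio test also called it, and so did the quasi-likelihood test when genes with few counts were kept, so the call depended on the test and on the filter. The log2 fold change was 1.04 without wild-type mouse 3 and 1.07 without IL-21isoTg mouse 3 (edgeR adjusted p = 0.624 and 0.231).

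Ctsl, which encodes a lysosomal protease, had 229 CPM, 265 CPM and 254 CPM in wild-type mice and 439 CPM, 459 CPM and 410.2 CPM in IL-21isoTg mice. This was a fold change of 1.75 (log2 0.81, edgeR adjusted p = 0.523, DESeq2 adjusted p = 0.000125), and the log2 fold change was 0.82 without wild-type mouse 3 and 0.86 without IL-21isoTg mouse 3. The serum amyloid gene Saa1 had 29, 12 and 156 counts in wild-type mice and 1264, 1588 and 181 in IL-21isoTg mice. Wild-type mouse 3 and IL-21isoTg mouse 3 were close in raw counts, but had 7.02 and 16.9 CPM, respectively. The log2 fold change of Saa1 was 3.85 (95% interval 1.81 to 5.89, edgeR adjusted p = 0.670). It was 5.50 without wild-type mouse 3 (edgeR adjusted p = 0.206) and 4.23 without IL-21isoTg mouse 3 (edgeR adjusted p = 0.549). Saa2 and Lrg1, the remaining genes under the unadjusted threshold, had log2 fold changes of 4.78 and 1.18 and edgeR adjusted p-values of 0.670 and 0.782.

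Socs3 had 167, 697 and 575 CPM in wild-type mice and 748 CPM, 475 CPM and 322 CPM in IL-21isoTg mice, and the groups overlapped (log2 fold change 0.10, 95% interval -1.08 to 1.29, edgeR adjusted p = 0.977). Socs3 belongs to a list of 16 inhibitors of JAK-STAT signalling, which also holds PIAS and phosphatase genes. All 16 were tested and 1 had an unadjusted p under 0.05 (5.82% of all genes), and the median log2 fold change was -0.02. The difference between this list and the genes that STAT3 can drive was not tested. The gene under the unadjusted threshold was Cish, a target of STAT5, with a log2 fold change of 0.66 (edgeR adjusted p = 0.809). Socs2 and Socs4 followed, with log2 fold changes of 0.99 and -0.32 (edgeR adjusted p = 0.809 each), and the 3 IL-21isoTg mice lay below the wild-type mice in 2 of the 16, Socs4 and Socs6 (6.54% of all genes).

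Some members followed differences between single mice that were not those of genotype. The comparisons in this paragraph were chosen after the values were seen. The order of the 6 mice by Lif was the same as their order by Krt18, a keratin of luminal cells, with wild-type mouse 1 highest and IL-21isoTg mouse 1 lowest in both. The orders by Krt8 and Epcam, other luminal genes, differed from it, although IL-21isoTg mouse 1 was lowest in these as well. Of the 14 luminal markers, Cdh1 had the same order as Lif. Elf5, Kit, Prlr, Esr1 and Pgr went otherwise and were lowest in wild-type mouse 1, the mouse highest for Lif. Elf5 was highest in IL-21isoTg mouse 1, so Lif did not follow the luminal markers as a set. Krt18 varied less, from 1192 to 1680.2 CPM, than Lif. The order by Bcl3 was that of Nfkb2 and of Relb, which encode NF-κB subunits of the noncanonical pathway, with 119 to 256 and 41.3 to 127.6 CPM. The orders by Nfkb1 and Rela, which encode other subunits, differed from it, with wild-type mouse 1 again highest.

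Socs3 was lowest in wild-type mouse 1 and next lowest in IL-21isoTg mouse 3, and so were the immediate-early genes Fos and Junb, at 958 to 3638 and 866 to 1981 CPM over the 6 mice. The share of salivary gland counts was 23.0%, 6.59% and 15.7% in wild-type mice 1 to 3 and 22.5%, 4.92% and 41.0% in IL-21isoTg mice 1 to 3. Socs3 was highest in IL-21isoTg mouse 1, and its relation to this share was not tested. Lifr, like Socs3, was lowest in wild-type mouse 1, but IL-21isoTg mouse 3 had one of its highest values. The part of the preparation in these levels was not tested.

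**Figure D4:**
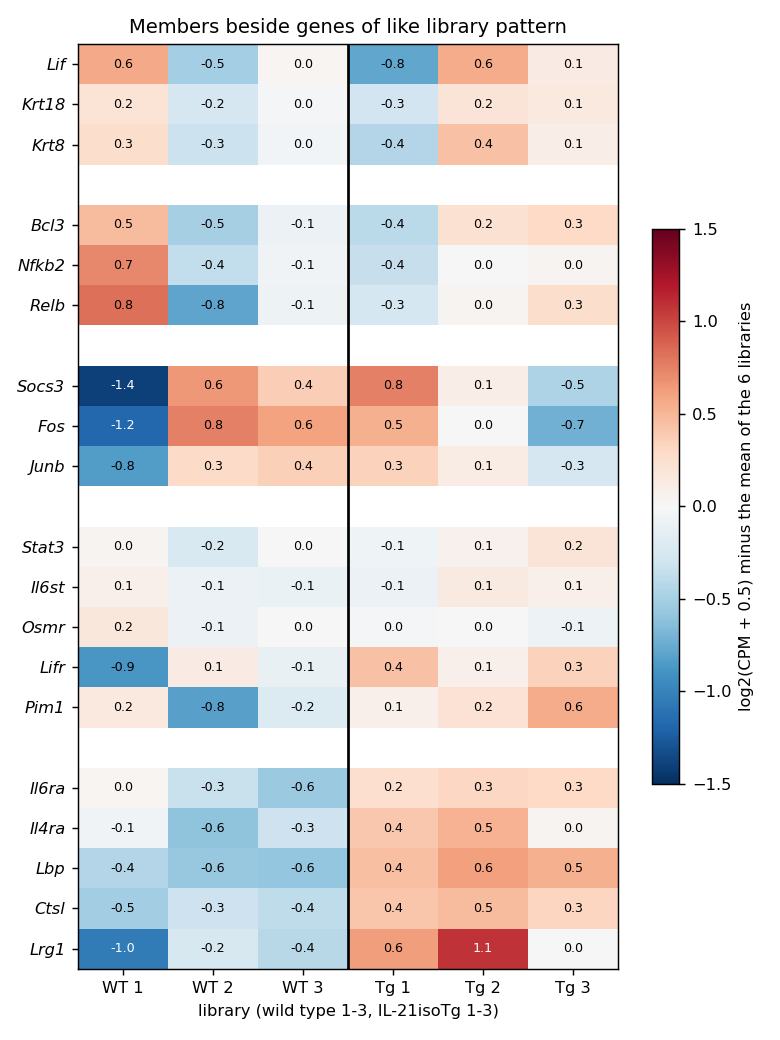
Level of members and other genes in each library, as log2(CPM + 0.5) minus the mean of the 6 libraries (red above, blue below; wild type left and IL-21isoTg right of the line). Lif and Bcl3 follow single mice of both genotypes, whereas Il6ra, Il4ra, Lbp, Ctsl and Lrg1 are higher in each IL-21isoTg mouse than in each wild-type mouse.

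The receptor of the transgenic cytokine, Il21r, had 11 to 55 counts per library, or 0.529 to 2.33 CPM, with overlap between genotypes (log2 fold change 0.52, edgeR adjusted p = 0.892). Spp1, the osteopontin gene, had 99.2, 190 and 230 CPM in wild-type mice and 1537, 1561 and 621 CPM in IL-21isoTg mice, without overlap. Its log2 fold change was 2.84 (edgeR unadjusted p = 0.000248, adjusted p = 0.355). In the same libraries the RNA of Stat3, Il6st and Osmr was nearly level. That of Il6ra was higher without overlap (edgeR adjusted p = 0.809), as was the case in 5.54% of all genes. Phosphorylation of STAT3 was not measured, and a link of these genes to Spp1 was not tested.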

How the data were processed

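RNA-seq counts of 6 MEC libraries, 3 of each genotype, were used, and groups and replicate numbers were taken from the sample labels. The authors deposited raw, unnormalized counts of reads per gene and mouse. A rescaled version of the table (counts over size factors) and a table of the authors' comparison with fold changes and p-values, were deposited too and were not used. The submitters' processing notes name FastQC 0.11.7, Trimmomatic 0.38, HISAT2 2.1.0, SAMtools 1.9, featureCounts 1.6.3, DESeq2 1.24.0 and the build mm10. The annotation, the strand setting and the handling of reads on overlapping genes are not given in the sources used here, and they bear on genes with antisense partners. GENCODE M21 for GRCm38, which holds 55141 of the 55487 gene identifiers, gave positions and exon lengths. No row lacked a gene.

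Genes were filtered with filterByExpr (minimum count 10, minimum total count 15), scaled with TMM, and compared with edgeR 4.0.16 (quasi-likelihood, robust) with genotype as the only term. Standard errors for the 95% intervals were the log2 fold change divided by the root of F. Adjusted p-values cover all 17165 genes tested, and the threshold was 0.05. R 4.3.3, DESeq2 1.42.0, limma 3.58.1, Python 3.11.15, scipy 1.17.1 and matplotlib 3.10.9 were used, and the fit was tested on simulated data. A count of 3 corresponds to 0.112 to 0.280 CPM, which covers counting error only. No pair of replicates agreed within counting noise (chi-square per degree of freedom of at least 103).

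The members, gene lists and alternatives were chosen with earlier results of these data known. Named genes are the members, the 3 genes with the smallest p of each pathway list, Il21, Il21r, Il6, Spp1, Socs3, defining markers, and the 3 genes most like Stat3. Saa2, Lrg1, Ctsb, Myc, Mcl1, Stat6, Osm, Il4, Il13, Socs6, Krt18, Nfkb1, Nfkb2, Rela, Relb, Fos, Junb, single endothelial and fibroblast markers and the antisense genes were added after their values were seen. Saa3, Hp, Bcl6, Timp1, Il27ra, Il31ra, Cntfr and single luminal, basal, leukocyte and milk protein markers were added in the same way. Fits of the pathway lists without wild-type mouse 3 or IL-21isoTg mouse 3 were also chosen after seeing the data. Promoter windows came from RefSeq for 9 of 9 members.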

Additional observations from a re-analysis of the deposited data

How the results depend on the processing

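Under 16 alternatives per gene (other scalings, filters and tests, a replicate block, a salivary gland covariate, and each mouse left out), 0 of the 9 members were called in any. Il6ra, Il4ra, Lifr, Pim1, Stat3 and Il6st kept a positive log2 fold change in all 16, at 0.43 to 0.75 for Il6ra and 0.52 to 0.81 for Il4ra. With each mouse left out in turn, Lif ranged from -0.36 to 0.29, Osmr from -0.12 to 0.018 and Bcl3 from -0.15 to 0.36, so their signs depended on single mice; which mouse was left out is the cause by construction. Of the pathway genes, 0 were called with all mice, 1 (Lbp) with no filter on low counts, 2 (Lbp and Ctsl) with DESeq2 and 2 (Lbp and Saa1) with edgeR's likelihood ratio test. Of all genes, 0 were called with all mice by edgeR's quasi-likelihood test (999 at an unadjusted p under 0.05), 14 with no filter, 80 with DESeq2, 65 with the likelihood ratio test, 1 with the salivary gland covariate and 0 to 6 with a mouse left out, the 6 without wild-type mouse 3. The cause of these differences was not tested. Mice of the same number share only that number (correlations of their deviations -0.26, 0.10 and -0.06), and with the replicate block 0 members, 0 pathway genes and 0 genes in all were called. With 3 mice against 3, the intervals of Lif, Bcl3 and Socs3 include changes of 1.5-fold in either direction, and Osm, Il27 and Cntf, at no more than 9 counts, could not be compared.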

Other observations

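Among the 17156 tested genes that are not members, those whose log2 CPM followed Stat3 most closely over the 6 libraries were Bpifb5, Gm16234 and Rlim, with Pearson correlations of 0.996, 0.992 and 0.990. The points share library composition and depth, and with 6 libraries and this many genes the closest matches are given as a description only. Rlim, which encodes a ubiquitin ligase, had 101.3, 82.0 and 97.7 CPM in wild-type mice and 91.6, 99.3 and 109.5 CPM in IL-21isoTg mice. Bpifb5 was low, at 0.432 to 3.36 CPM, and highest in IL-21isoTg mouse 3, the mouse with most salivary gland counts and the highest Stat3 level.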
